A study of Mus musculus with 8 samples.

Results

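The cytosolic ribosomal protein genes encode the proteins of the large and small subunits of the ribosome, the particle that translates mRNA. Members were taken by symbol from the table deposited by the authors. They are Rpl or Rps followed by a number, with at most 1 letter and 1 further number, together with the stalk genes Rplp0, Rplp1 and Rplp2 and with Rpsa. The Rps6k kinases were left out. The pattern found 81 of the 11234 genes listed, 48 assigned by symbol to the large subunit and 33 to the small subunit. Among the 81 are 4 paralogs, Rpl7l1, Rpl22l1, Rps27l and Rps4l, which resemble another member. Their symbols do not show that their proteins are part of the finished ribosome. All 81 reached the mean of at least 1 RPKM required of tested genes, so no member was lost to the filter on low values.

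The tissue was interscapular brown fat, a depot that burns lipid to make heat, from male C57BL/6 mice killed at 12 weeks of age. Housing was at 29 °C for the last 2 weeks, close to thermoneutrality for a mouse, and tissue was collected at 5 PM (zeitgeber time 10). The 4 control libraries, replicates 11, 12, 13 and 14, are labelled as floxed for Hdac3 and carry no Cre. The 4 knockout libraries, replicates 4, 5, 19 and 20, carry the same floxed Hdac3 and also AdQCre, a Cre recombinase under the adiponectin promoter. That promoter is active in brown and white adipocytes, so other cells of the depot keep Hdac3, which encodes the deacetylase of the NCoR and SMRT corepressor complexes. Libraries were made from 1 µg of total RNA after removal of ribosomal RNA. The labels do not say that each library is a separate animal, so p-values here measure the spread between libraries, which may be technical.

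Ribosomal proteins are assembled with ribosomal RNA in the nucleolus, most of them in 1 copy per ribosome, and their mRNAs are among the most abundant of any cell. Most of these mRNAs begin with a C followed by a run of pyrimidines, the 5′ terminal oligopyrimidine (TOP) tract. Through the tract, mTOR complex 1 and the protein LARP1 set how much of the mRNA is translated. The genes are also the parents of many processed pseudogenes, copies of the mRNA inserted elsewhere in the genome, which can share reads with them.

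Each library held between 13619308 and 17986134 reads, as worked out from the RPKM values. Of these, 17.1% to 20.1% fell on listed genes in control and 21.4% to 24.96% in knockout libraries. Between 22 and 2983 reads supported a member in a library, and at least 258 outside the 4 paralogs. Hdac3 stood at 6.91, 7.68, 7.98 and 8.001 RPKM in control and at 2.66, 3.93, 3.62 and 2.93 RPKM in knockout libraries, and the genotypes did not overlap (limma, log2 fold change -1.02, adjusted p = 4.33e-05). All 10 brown adipocyte markers were listed and tested, and 5 rose and 3 fell. Their summed level was 2759 to 3051 RPKM in control and 4743 to 5669 RPKM in knockout libraries. A sum of RPKM follows the most abundant markers. The median log2 fold change of the 10 was 0.19, beside 0.01 for all genes tested. Ucp1, which defines the cell type, was at 116.6 to 213.2 RPKM in control but at 2.02 to 8.26 RPKM in knockout libraries. Macrophage markers were higher in the knockout in 12 of 13 cases under each of the 3 scalings described below. Their summed level was 48.2 to 63.3 RPKM in control and 98.9 to 116.8 RPKM in knockout libraries. The part of this difference in the results on the members was not tested. None of the 11 skeletal muscle markers was listed. Of the other lists, 0 of 12 endothelial markers rose and 2 fell with TMM scaling, 2 of 9 fibroblast markers rose, none of 5 red cell markers passed the test, and Ptprc was the only lymphocyte marker of 10 that was tested, and it rose. In bulk tissue, fewer cells of a type and less RNA per cell cannot be told apart.

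The annotated transcription starts of members that passed the test below show the tract, or its absence, at the place where TOP control would act. Starts were taken from RefSeq promoters of build GRCm38.p6, which held 60 of the 81 members. Each line gives the 15 bases before the start and the 15 from the start onward on the gene's strand, and capitals mark every C followed by at least 4 further C or T. Shown are 12 members that rose, those with the smallest adjusted p for which a start could be printed, and Rps26, which fell.
Rpl7l1 (chr17:46782642-46782671, minus strand): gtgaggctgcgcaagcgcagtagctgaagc
Rps28 (chr17:33824548-33824577, minus strand): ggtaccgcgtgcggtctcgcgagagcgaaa
Rpl9 (chr5:65391417-65391446, minus strand): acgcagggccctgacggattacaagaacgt
Rps18 (chr17:33955651-33955680, minus strand): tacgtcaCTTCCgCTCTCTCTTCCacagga
Rps19 (chr7:24884577-24884606, plus strand): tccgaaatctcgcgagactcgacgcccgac
Rps3 (chr7:99483695-99483724, minus strand): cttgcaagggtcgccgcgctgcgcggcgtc
Rps15 (chr10:80292416-80292445, plus strand): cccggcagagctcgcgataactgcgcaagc
Rpl15 (chr14:18270972-18271001, minus strand): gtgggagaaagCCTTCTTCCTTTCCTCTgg
Rps27 (chr3:90213634-90213663, minus strand): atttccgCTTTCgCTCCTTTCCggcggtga
Rpl37a (chr1:72711245-72711274, plus strand): ttccgctcgccggtctaaaaccgcgcatgc
Rpl38 (chr11:114668565-114668594, plus strand): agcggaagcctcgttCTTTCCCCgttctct
Rps21 (chr2:180257364-180257393, plus strand): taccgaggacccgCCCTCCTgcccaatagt
Rps26 (chr10:128626492-128626521, minus strand): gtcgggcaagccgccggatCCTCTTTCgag

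In Rps18, Rpl15, Rps27, Rpl38 and Rps21 the annotated start itself is a C inside such a run. In Rps26 the run begins a few bases after the start. In Rpl7l1, Rps28, Rpl9, Rps3, Rps15, Rpl37a and the first start of Rps19 no run lies in the window, which says only that these letters are absent there. Over all 60 members in the table, 21.7% had a C with at least 4 following pyrimidines exactly at an annotated start, beside 3.01% of all 27025 genes. Within the 15 bases on either side, 65.0% of members and 40.3% of all genes held such a run. In the 250 bases before and 50 bases after the start, on either strand, CCGGAAG, the core bound by ETS factors, was found in 41.7% of members and 9.93% of all genes. GGGCGG, bound by SP1, was found in 63.3% and 38.2%, and AAGATGG, bound by YY1, in 16.7% and 7.28%. CCGGAAG ends and AAGATGG begins with AAG, so their matches can overlap. These are matches of letters, not measured binding. The 27025 genes are all those with a RefSeq promoter, not only the genes tested in this tissue. The shares therefore do not compare the members with other genes expressed here.

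The comparison between genotypes asked whether the loss of Hdac3 from adipocytes moved the ribosomal protein mRNAs at thermoneutrality. With TMM scaling, which sets each library by the trimmed mean of its gene ratios, 25 of the 81 members rose in the knockout and 2 fell. Of all 8764 genes tested, 19.4% rose and 15.9% fell, beside 30.9% and 2.47% of members (limma on log2(RPKM + 1), Benjamini-Hochberg adjustment over all genes tested, threshold 0.05). Both subunits were represented, with 16 of 48 large subunit genes and 9 of 33 small subunit genes higher, and Rpl21 and Rps26 lower. The median log2 fold change of the members was 0.17 and that of all genes tested 0.01. It was 0.19 for the large and 0.12 for the small subunit, and 67 members had a value above 0. At an unadjusted p below 0.05, 35 were higher and 3 lower, where 24.3% and 20.8% of all genes were. Without control replicate 11 the count of 25 was 14, which is 17.3% of members beside 17.0% of all genes. It was 13 without control replicate 13, or 16.0% beside 17.9%, and 14 without knockout replicate 4, or 17.3% beside 17.8%. In these 3 cases the share was close to or below that of all genes. The count was 17 to 25 without any other library, where fewer of all genes rose than in the full set. The median of 0.17 was 0.11 without knockout replicate 4. At an FDR below 0.05, the authors' deposited table has 23 members higher and 2 lower, where 17.0% and 16.6% of its genes are, and all of these are among the 25 and the 2. With limma voom on recovered reads, 26 rose and 2 fell, where 20.2% and 16.6% of all genes did. The changes were small: log2 fold changes ran from -0.33 to 0.64.

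**Figure D1:**
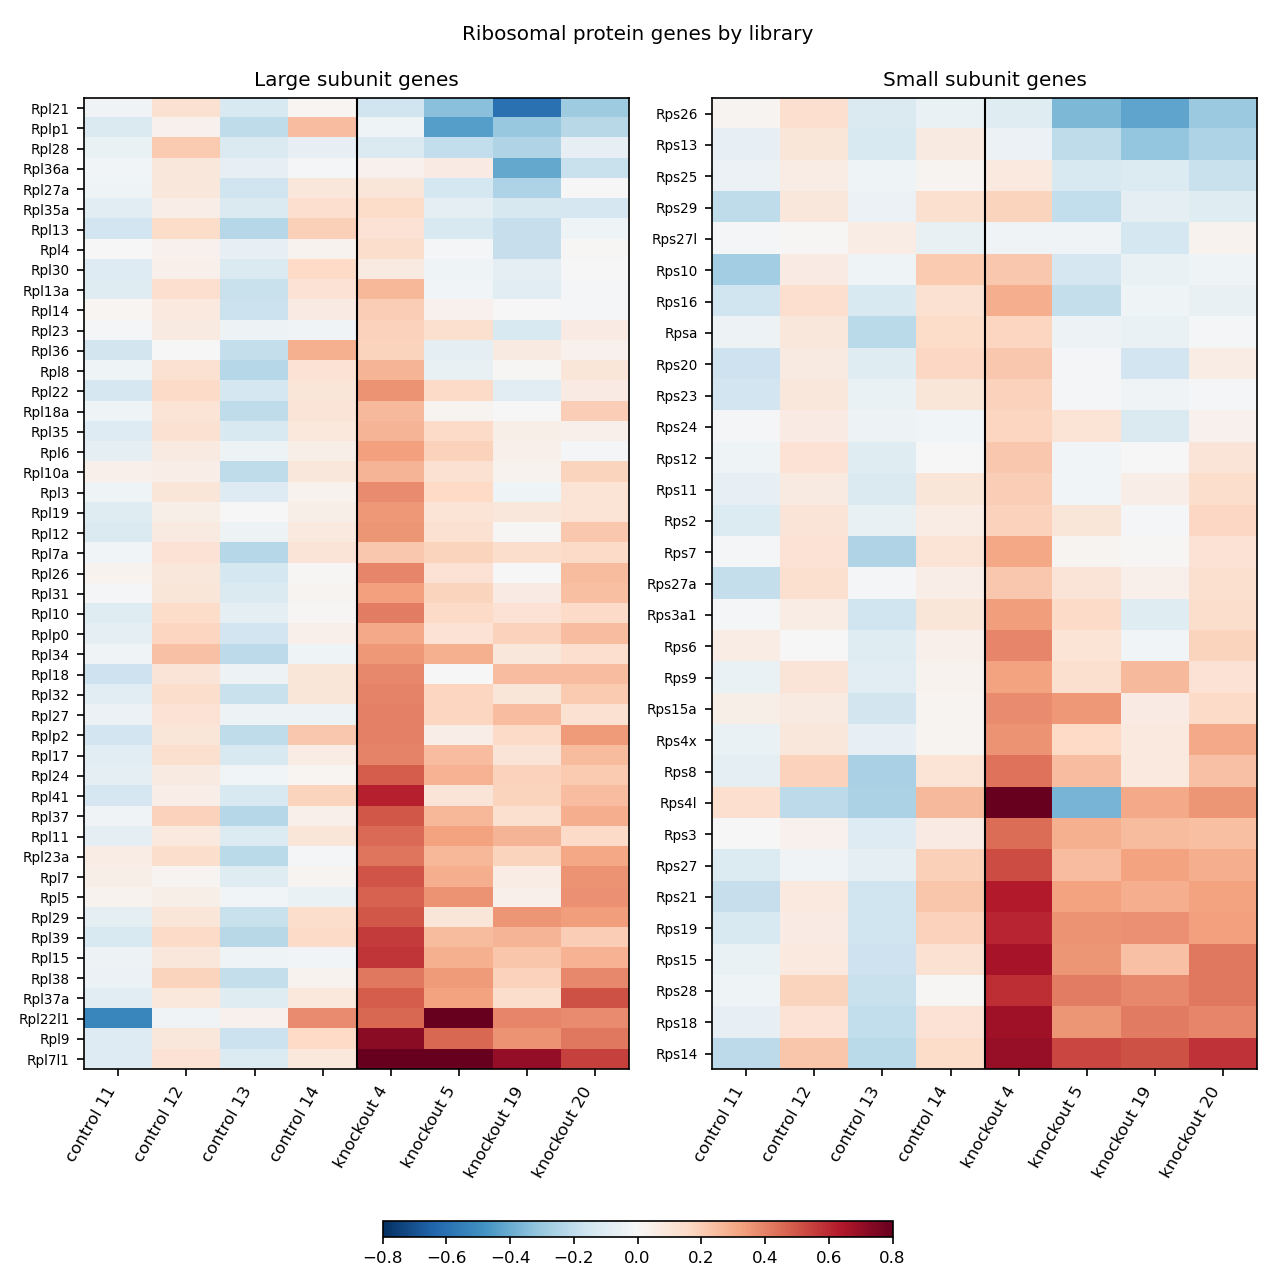
Level of 79 of the 81 ribosomal protein genes in each of the 8 libraries, as log2 of its TMM-scaled RPKM over the mean of the 4 control libraries; rows are genes ordered by fold change within a subunit, and the line parts control from knockout. Knockout replicate 4 has the highest geometric mean, and the top rows, Rpl21 and Rps26, are blue in the knockout; colours stop deepening at the ends of the bar.

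The level of the family as a whole depended on how libraries were scaled, and knockout replicate 4 was its highest library. The geometric mean of the 81 members, as a percentage of its control mean, was 91.7 to 106.7 in control and 104.2 to 126.4 in knockout libraries under TMM, so the genotypes overlapped. Scaled by the library total alone, as the authors deposited the RPKM, it was 90.4 to 105.7 and 116.3 to 143.2, with no overlap. Scaled by the sum of reads on listed genes, it was 90.9 to 106.9 and 90.9 to 111.8. With the library total, 57 members rose and none fell, where 31.9% of all genes rose and 7.17% fell. At an unadjusted p below 0.05, limma gave 61 higher and 0 lower with that scaling, where 38.7% and 9.27% of all genes were. With the listed-gene sum, 5 rose and 7 fell, where 12.4% and 30.2% of all genes did. The median of the members moved with the scaling, from 0.35 to 0.02, and that of all genes tested from 0.14 to -0.11. In each of the 3 scalings the members' median lay above that of all genes. A change of scaling moves both medians by a similar amount, so the 3 are not separate observations. In whole reads, the members took 0.382% ± 0.0246 of all library reads in control and 0.487% ± 0.0426 in knockout libraries (SD, n = 4 each). Of the reads on listed genes they took 2.09% ± 0.155 and 2.10% ± 0.180, which differ by less than the spread between libraries.

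**Figure D2:**
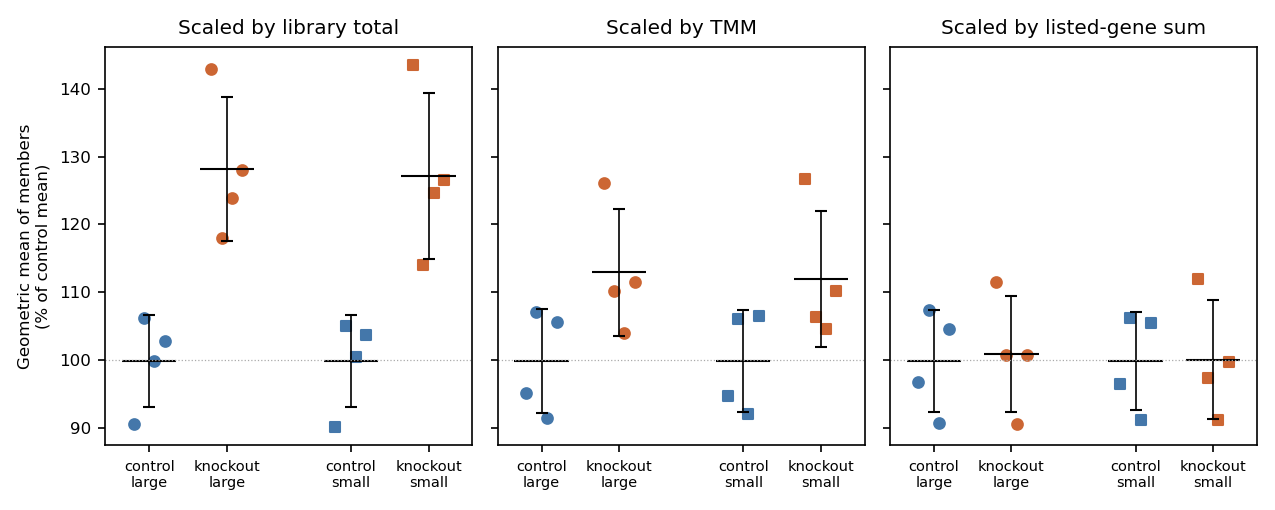
Geometric mean of the large subunit genes (circles) and small subunit genes (squares) in each library, in percent of the control mean, under 3 scalings; lines and bars are the mean ± SD of 4 libraries. The knockout libraries lie above the control libraries with the library total and overlap them under TMM and with the listed-gene sum.

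The balance of the subunits was described by a ratio. The mean RPKM of large subunit genes over that of small subunit genes, a ratio that no scaling of libraries can change, was 0.956 ± 0.0116 in control and 0.948 ± 0.00578 in knockout libraries (SD, n = 4 each). The ranges, 0.942 to 0.969 and 0.943 to 0.956, overlapped. The most abundant members were Rplp2, Rpl41 and Rplp1 in the large subunit, at 204.5, 170.6 and 158.9 RPKM over all libraries, and Rps12 and Rps2 in the small subunit, at 145.1 and 140.4 RPKM. None of these 5 passed the test, with adjusted p of 0.0877 to 0.504 by limma. Rpl41, the shortest protein of the ribosome, had a log2 fold change of 0.29 (adjusted p = 0.0877), and Rps12 and Rps2 had values of 0.08 and 0.11.

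**Figure D3:**
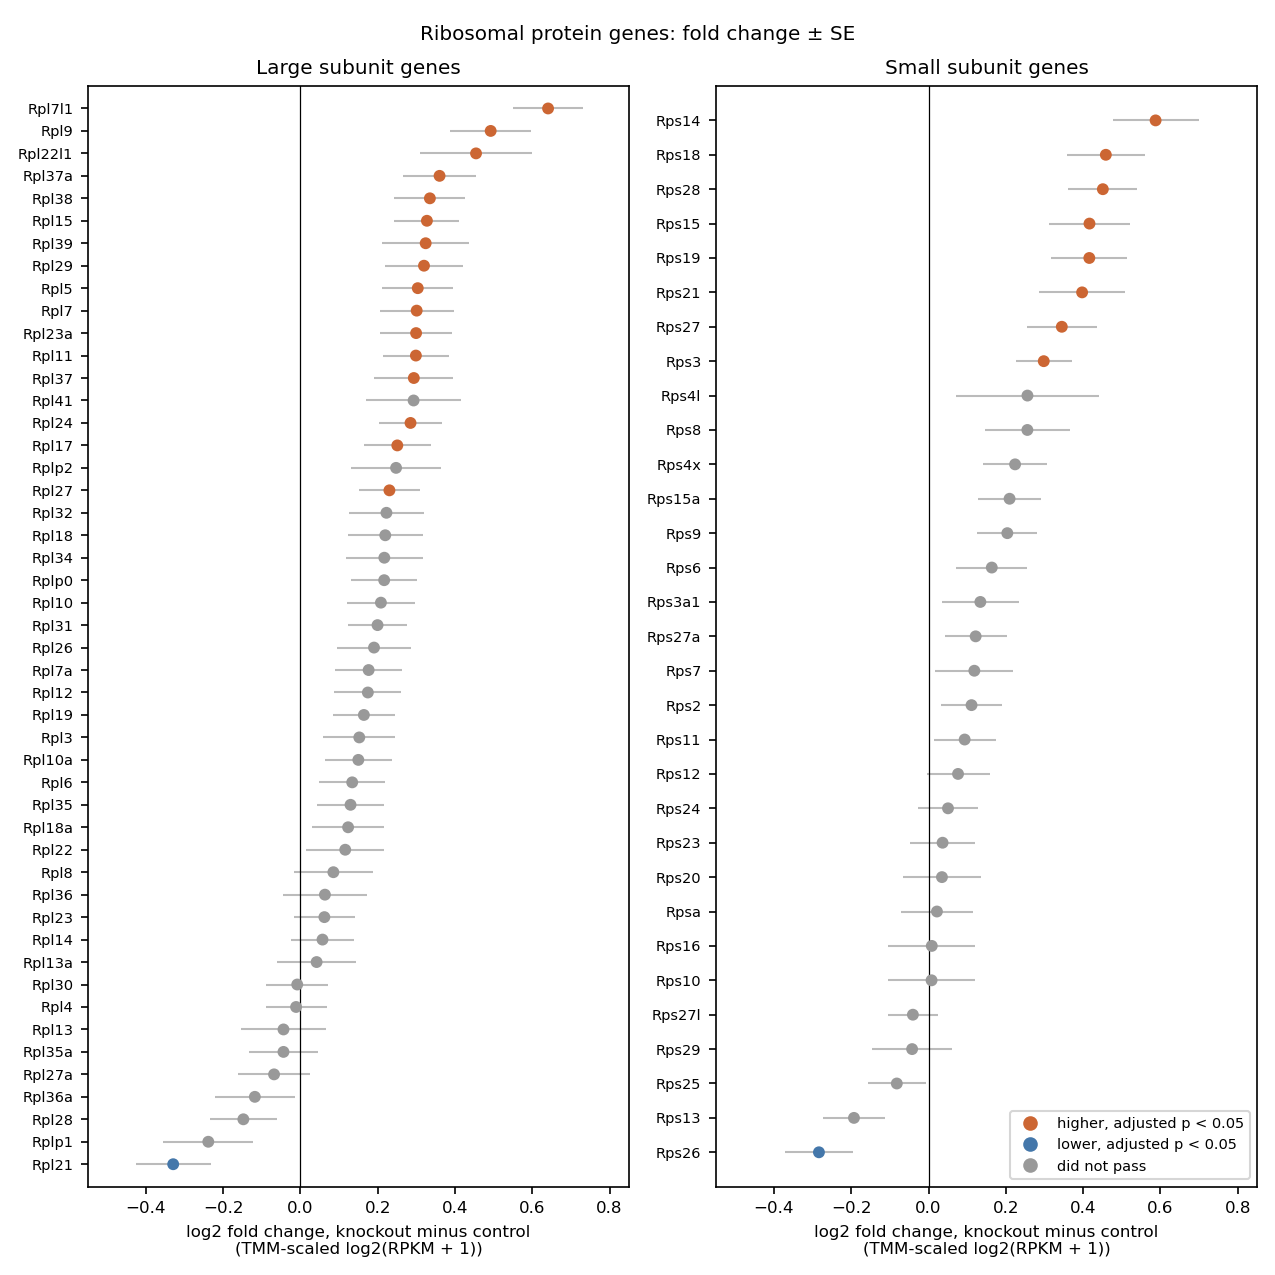
Log2 fold change, knockout minus control, of 79 of the 81 members, by subunit, with its standard error, from limma on TMM-scaled log2(RPKM + 1) in 4 libraries per genotype; orange and blue points passed the adjusted threshold upward and downward. Most points lie above 0, 24 are orange, and Rpl21 and Rps26 are blue.

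In the small subunit, the largest rises were in Rps14, Rps18 and Rps28. Rps14, a protein of the platform that holds the mRNA near its exit, stood at 74.2, 100.1, 74.0 and 95.3 RPKM in control and at 139.1, 124.2, 122.3 and 128.3 RPKM in knockout libraries. Every knockout library was above every control library, and the mean was 1.496-fold higher (limma, log2 fold change 0.59, SE 0.11, adjusted p = 0.0025). Rps18, of the head of the subunit, stood at 85.6, 97.1, 78.2 and 97.1 RPKM in control and at 143.0, 114.1, 119.2 and 117.2 RPKM in knockout libraries. Its genotypes did not overlap either, with a mean 1.38-fold higher (log2 fold change 0.46, SE 0.10, adjusted p = 0.00576 by limma). Rps28, also in the head, stood at 65.2, 75.6, 59.0 and 67.0 RPKM in control and at 100.4, 88.5, 87.0 and 89.5 RPKM in knockout libraries, 1.37-fold higher without overlap (limma, adjusted p = 0.0032).

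Further small subunit genes that rose were Rps19, Rps3, Rps15, Rps27 and Rps21, with log2 fold changes of 0.30 to 0.42. Rps19, the first gene linked to Diamond-Blackfan anaemia in people, stood at 51.2, 58.5, 50.1 and 63.6 RPKM in control and at 85.3, 71.7, 71.8 and 70.1 RPKM in knockout libraries (limma, adjusted p = 0.0085). Knockout replicate 4 was the highest and the other 3 lay close together, and no knockout library reached down to a control library. Rps3, at the site where mRNA enters the subunit, was at 28.6 to 32.0 RPKM in control and 36.2 to 41.7 RPKM in knockout libraries (adjusted p = 0.00962 by limma). Rps15 was at 86.7 to 105.8 and 114.1 to 153.1 RPKM, and Rps27, a zinc finger protein, at 58.0 to 71.5 and 74.1 to 89.8 RPKM. A gene listed under a symbol outside the pattern had nearly the same number of reads as Rps27 in every library. It had 498 reads beside 501 in control replicate 11 and 947 beside 948 in knockout replicate 4. Reads may thus be shared between these genes, which was not tested. Rps21 lost the call when 1 library was left out, with an adjusted p up to 0.0568 by limma.

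Rps26, a protein of the mRNA exit channel, fell. It stood at 51.9, 56.0, 47.1 and 49.1 RPKM in control and at 47.7, 39.8, 38.1 and 41.6 RPKM in knockout libraries. Knockout replicate 4 lay within the control range and the other 3 knockout libraries below it, and the mean was at 81.9% of that in control (limma, log2 fold change -0.28, SE 0.09, adjusted p = 0.03). Leaving out 1 library gave adjusted p of 0.0114 to 0.0837 by limma, and the library total gave a log2 fold change of -0.11 that did not pass (adjusted p = 0.39). In the authors' deposited table its log2 fold change was -0.31 with an FDR of 0.0147.

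Among the genes assigned by symbol to the large subunit, Rpl9 and the paralog Rpl7l1 rose most. Rpl9, which lies near the site where elongation factors act, stood at 88.4, 101.0, 84.4 and 105.8 RPKM in control and at 156.8, 130.4, 121.8 and 126.9 RPKM in knockout libraries. The genotypes did not overlap, and the mean was 1.41-fold higher (limma, log2 fold change 0.49, SE 0.10, adjusted p = 0.00469). Rpl7l1 was far less abundant, at 3.65, 4.25, 3.63 and 4.15 RPKM in control and 7.86, 6.81, 6.40 and 5.74 RPKM in knockout libraries. Its rise was the largest of all members, 1.71-fold (limma, log2 fold change 0.64, SE 0.09, adjusted p = 0.000431).

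A further group of large subunit genes rose with log2 fold changes of 0.23 to 0.45. Rpl37a, Rpl38 and Rpl15 passed the test in the full set and without any 1 library. Rpl38, which in the mouse embryo is needed to translate certain Hox mRNAs, was at 60.5 to 78.0 RPKM in control and 78.3 to 92.2 RPKM in knockout libraries (limma, adjusted p = 0.0172), so the lowest knockout library was just above the highest control library. Rpl15, which lies deep in the ribosomal RNA, was at 21.2 to 23.1 and 25.3 to 32.4 RPKM, and Rpl37a, a zinc finger protein, at 49.5 to 56.4 and 58.5 to 75.6 RPKM.

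Rpl5 and Rpl11 bind a small ribosomal RNA together and, when outside the ribosome, the p53 regulator Mdm2. Rpl5 was at 31.6 to 33.9 RPKM in control and 33.8 to 45.6 RPKM in knockout libraries, where replicate 19 fell inside the control range. Rpl11 was at 83.1 to 95.96 and 99.7 to 122.9 RPKM with no overlap. Their adjusted p values by limma were 0.0271 and 0.0217. Rpl23a, Rpl39 and Rpl17 line the exit tunnel of the nascent chain, and their log2 fold changes were 0.30, 0.32 and 0.25, with adjusted p of 0.0301, 0.046 and 0.0465 by limma. Rpl24, of a bridge between the subunits, had a log2 fold change of 0.28, and Rpl29, Rpl7, Rpl27, Rpl37 and Rpl22l1 completed the 16. Of the 25 members that rose, 12 passed the test in the full set and without any 1 library: Rpl7l1, Rpl9, Rpl15, Rpl37a, Rpl38, Rps3, Rps14, Rps15, Rps18, Rps19, Rps27 and Rps28. Neither fall did. The genotypes did not overlap in 23 members with the knockout higher and in 1, Rpl21, with it lower, where 18.8% and 16.0% of all tested genes did so.

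Rpl21 showed the largest fall. It stood at 34.6, 38.5, 32.5 and 35.7 RPKM in control and at 31.7, 28.0, 23.3 and 29.1 RPKM in knockout libraries, so that every knockout library was below every control library, by little in replicate 4. Its mean was at 79.3% of that in control (limma, log2 fold change -0.33, SE 0.10, adjusted p = 0.0238). Without 1 library the adjusted p was 0.0139 to 0.0674 by limma, and with the library total the log2 fold change was -0.15 (adjusted p = 0.222). The authors' deposited table gives a log2 fold change of -0.35 with an FDR of 0.00549. Rpl21 also had the most near-identical copies. In GENCODE M21, transcripts of 56 pseudogenes, counted by symbol, matched at least 80% of its coding sequence at 95% identity or more. The median was 5 over the 80 members that could be matched. Its gene model spans 1856 bases. The annotated transcript taken, the shortest of those with the longest coding sequence, has 899. The part of these copies in the fall was not tested, and no source used here gives the treatment of reads with several matches.

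Copies were common in the family: 72 of the 80 matched members had at least 1. Rps14 and Rps15 had 2 each, Rpl7l1 had 1, Rps28 had 7 and Rpl9 had 9. Across members the log2 fold change had a Pearson correlation of -0.21 and a Spearman correlation of -0.09 with the number of copies, where Rpl21 is an extreme point (n = 80 members, which share the same 8 libraries). In the same order they were 0.01 and 0.06 with the GC content of the transcript, and -0.10 and -0.14 with its length on a log2 scale. With mean level on a log2 scale they were -0.08 and 0.10, of opposite sign. The gene model of some members is much longer than the annotated transcript so chosen, and that of others is shorter. RPKM divides by the model. Rps15a was at 7.48 RPKM over a model of 5134 bases and its annotated transcript has 640, and Rpl22 was at 10.7 RPKM over 2497 bases with a transcript of 474.

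**Figure D4:**
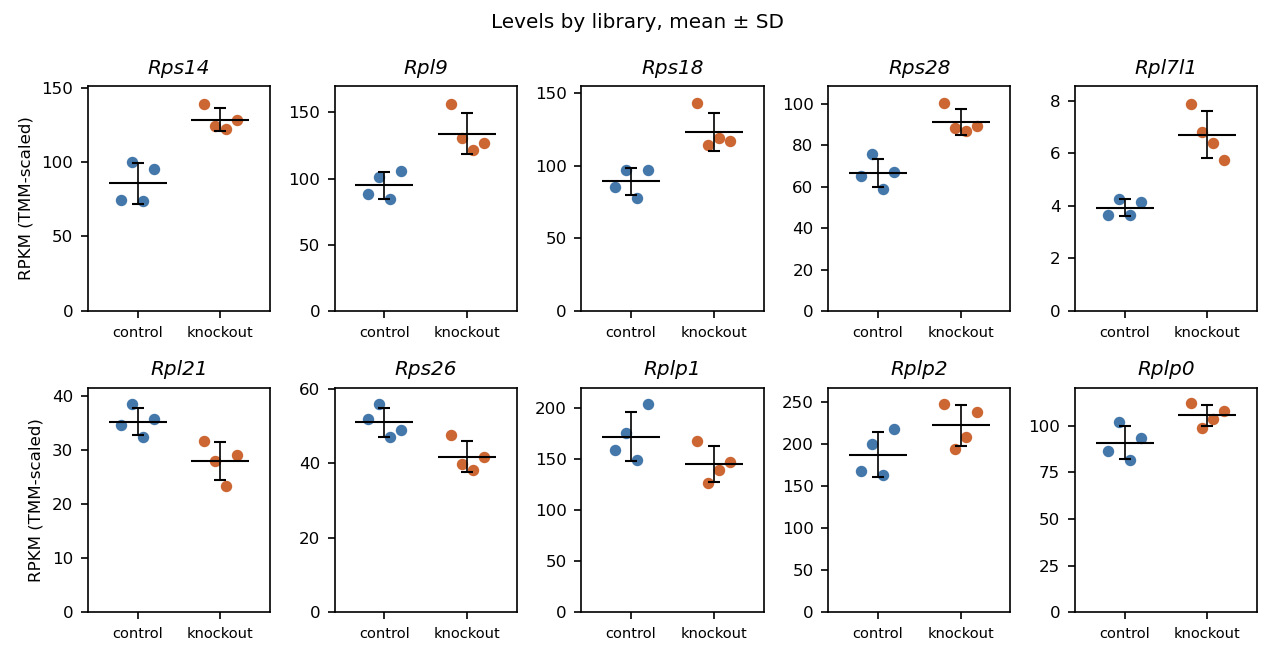
TMM-scaled RPKM of 10 members in each library, with lines and bars for the mean ± SD of 4 libraries. Rps14, Rpl9, Rps18, Rps28 and Rpl7l1 are higher in every knockout library, Rpl21 is lower in every one, and Rplp1 is lower on average where Rplp0 and Rplp2 are higher on average.

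To see how members moved against each other whatever the scaling of libraries, each library was set so that the median log2 ratio of the members was 0. Relative to the family, 7 members were then higher, Rpl7l1, Rpl9, Rps14, Rps15, Rps18, Rps19 and Rps28, and 9 lower, Rpl21, Rpl27a, Rpl28, Rpl35a, Rpl36a, Rplp1, Rps13, Rps25 and Rps26. These were 8.64% and 11.1% of members, where 9.54% of all tested genes were higher and 23.9% lower with this scaling. The share of higher members was thus near that of all genes, and the share of lower members was below it. This scaling itself holds the median log2 fold change of the members near 0, at 0.0003, and puts that of all genes at -0.12. The shares of members and of all genes therefore depend on that choice, and their difference is not a result about the members. Rps14 had a log2 fold change of 0.41 (limma, adjusted p = 0.00243), Rpl9 of 0.32, Rps18 of 0.28 and Rps28 of 0.28. Rpl21 stood at -0.50 (adjusted p = 0.00061 by limma), Rps26 at -0.46, Rplp1 at -0.41, Rps13 at -0.37 and Rpl28 at -0.32. Rpl7l1, Rps14, Rpl9, Rps18 and Rps28 upward, and Rpl21, Rps26, Rplp1, Rps13 and Rpl28 downward, passed this test without any 1 library too. The 5 upward ones also rose under TMM, the library total and the listed-gene sum. The 7 higher members were 2 large and 5 small subunit genes, and the 9 lower ones were 6 and 3. Without control replicate 11 the 9 became 5.

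The stalk of the large subunit is built of Rplp0 and of pairs of Rplp1 and Rplp2, acidic proteins that recruit elongation factors. Rplp1 was at 158.8, 176.2, 149.7 and 204.1 RPKM in control and at 168.3, 127.0, 139.4 and 147.6 RPKM in knockout libraries, with overlap (limma, log2 fold change -0.24, adjusted p = 0.139). Rplp2 was at 168.2, 200.2, 162.6 and 217.7 RPKM in control and at 247.2, 194.3, 208.6 and 237.2 RPKM in knockout libraries, again with overlap (limma, log2 fold change 0.25, adjusted p = 0.126). Control replicates 12 and 14 were the highest control libraries for both genes. The ratio of Rplp1 to Rplp2, looked at after these values were seen, was 0.944, 0.880, 0.921 and 0.938 in control and 0.681, 0.654, 0.668 and 0.622 in knockout libraries. The lowest control library was well above the highest knockout library, and the means were 0.921 ± 0.0287 and 0.656 ± 0.0251 (SD, n = 4 each). The ratio of Rplp1 to Rplp0 was 1.72 to 2.19 in control and 1.29 to 1.502 in knockout libraries, without overlap. That of Rplp2 to Rplp0 was 1.95 to 2.34 and 1.97 to 2.21, with overlap. Rplp0 alone was at 86.2, 102.2, 81.7 and 93.2 RPKM in control and 112.1, 98.5, 103.4 and 107.8 RPKM in knockout libraries (limma, log2 fold change 0.22, adjusted p = 0.0747). Rpsa, a small subunit protein also known as a laminin receptor, was at 66.6 to 85.5 and 74.6 to 87.3 RPKM (limma, log2 fold change 0.02, adjusted p = 0.88).

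**Figure D5:**
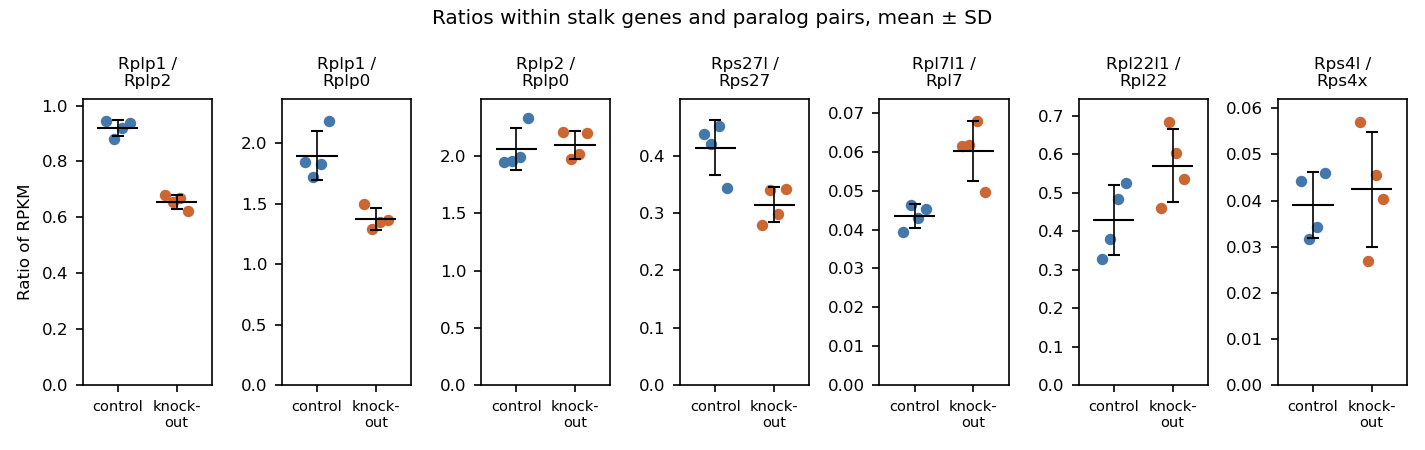
Ratio of RPKM between stalk genes and between each paralog and its partner, by library, with the mean ± SD of 4 libraries per genotype; each panel has its own axis from 0. The ratio of Rplp1 to Rplp2 falls from 0.880 to 0.944 in control to 0.622 to 0.681 in knockout libraries, and the ratios of Rps27l to Rps27 and of Rpl7l1 to Rpl7 also part the genotypes.

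Of the paralogs, Rpl7l1 and Rpl22l1 rose, and Rps27l and Rps4l did not pass the test. The ratio of Rpl7l1 to Rpl7 was 0.0393 to 0.0464 in control and 0.0497 to 0.0680 in knockout libraries, without overlap. Rpl7 had a log2 fold change of 0.30 (limma, adjusted p = 0.0327). Rpl22l1, which Rpl22 represses in the mouse, was at 3.07, 4.32, 4.51 and 5.74 RPKM in control and 6.05, 7.80, 5.79 and 5.73 RPKM in knockout libraries. Its highest control library reached the lowest knockout library (limma, log2 fold change 0.45, adjusted p = 0.0328). Rpl22 itself was at 9.31 to 11.4 and 9.61 to 13.1 RPKM, and the ratio of the pair overlapped between genotypes. Rps27l, a paralog that p53 induces, was at 25.4, 25.9, 26.7 and 24.6 RPKM in control and 25.1, 25.1, 23.3 and 26.1 RPKM in knockout libraries (limma, log2 fold change -0.04, adjusted p = 0.658). Rps27 rose, and the ratio of the pair was 0.344 to 0.451 in control and 0.280 to 0.341 in knockout libraries, which parted the genotypes narrowly. Any reads that Rps27 shares with the gene described above enter this ratio. Rps4l was at 2.82 to 4.02 and 2.59 to 6.31 RPKM, with overlap, and its ratio to Rps4x overlapped too. Rpl3l, Rpl39l and Rpl10l were not listed under these symbols and so were not analysed. Their partners Rpl3, Rpl39 and Rpl10 had log2 fold changes of 0.15, 0.32 and 0.21, of which that of Rpl39 passed the test.

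Fau also encodes a ribosomal protein, under a symbol outside the pattern, and rose. Other ribosomal protein genes outside the pattern are not described here by name, and they did not all rise. Fau, which fuses a ubiquitin-like protein to a small subunit protein, was at 32.9, 39.3, 36.3 and 44.6 RPKM in control and 60.9, 51.8, 54.9 and 49.8 RPKM in knockout libraries (limma, log2 fold change 0.50, adjusted p = 0.00387). It was higher in every knockout library than in any control library.

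Other mRNAs of the TOP class, among them elongation factors and Fau, were described as a list. Of 21 tested, 8 rose and 2 fell, where 19.4% and 15.9% of all tested genes did. The median log2 fold change was 0.18. Without control replicate 11 the 8 became 5, where 17.0% of all genes rose. Eif4b, a cofactor of the helicase that unwinds mRNA, rose from 17.6 ± 1.20 to 24.7 ± 1.25 RPKM, and the helicase Eif4a2 from 27.7 ± 1.66 to 37.3 ± 2.69 RPKM (SD, n = 4 each). Eef2, which moves the ribosome along the mRNA, rose from 132.9 ± 5.31 to 170.3 ± 11.5 RPKM. Tpt1, the translationally controlled tumour protein, fell from 90.1 ± 1.78 to 73.7 ± 6.72 RPKM. With the library total alone 11 rose and none fell, where 31.9% and 7.17% of all genes did. With the listed-gene sum 3 rose and 5 fell, where 12.4% and 30.2% of all genes did.

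Among initiation factors, 6 of 36 rose and 5 fell, with a median log2 fold change of 0.06, where 19.4% and 15.9% of all tested genes rose and fell. The 5 became 1 without knockout replicate 5, and 2 without any 1 of control replicates 11, 12 and 13 and knockout replicates 19 and 20. Eif3d, a subunit of the factor that loads the small subunit on mRNA, rose from 9.22 ± 0.838 to 14.95 ± 1.01 RPKM, and Eif4g1, the scaffold of the cap complex, from 20.4 ± 0.915 to 29.1 ± 1.73 RPKM. Eif3a had a log2 fold change of 0.34. Eif1ax, which acts in scanning for the start codon, fell from 12.7 ± 0.643 to 8.91 ± 1.09 RPKM. With the library total 16 rose and 1 fell, and with the listed-gene sum 4 rose and 10 fell. Among ribosome assembly factors, 14 of 75 rose, a share close to the 19.4% of all genes, and 1 fell, with a median of 0.06. The 14 became 7 without knockout replicate 4, 8 without control replicate 11 or 13 and 9 without knockout replicate 5, and the 1 became 3 and 2 without knockout replicate 4 and control replicate 13. Emg1, a methyltransferase of small subunit RNA, rose from 6.62 ± 0.641 to 12.4 ± 0.664 RPKM (limma, log2 fold change 0.82, adjusted p = 3.4e-05). Riok2, a kinase of late small subunit maturation, and the helicase Ddx27 each had a log2 fold change of 0.38. Nop10, of the complexes that modify uridines in ribosomal RNA, fell from 22.2 ± 2.64 to 14.8 ± 0.244 RPKM. The counts were 24 and 1 with the library total and 5 and 10 with the listed-gene sum.

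Regulators of the family were listed from the mTOR pathway, the transcription factors of the MYC network and the LARP proteins. They were near or below the share of all genes. Of 34 tested, 4 rose and 6 fell, where 19.4% and 15.9% of all genes did, with a median log2 fold change of -0.04. The library total gave 10 and 1, and the listed-gene sum 3 and 11. Eif4ebp1, a repressor of cap-dependent translation that mTOR complex 1 inactivates, rose from 28.7 ± 0.484 to 49.0 ± 7.06 RPKM (limma, adjusted p = 0.000382). Lamtor1, which anchors mTOR complex 1 to the lysosome, rose from 10.5 ± 0.938 to 14.7 ± 1.16 RPKM. Sesn3, a sestrin that restrains the complex, fell from 1.95 ± 0.433 to 0.952 ± 0.143 RPKM, and Larp4, a protein that binds poly(A) mRNA, from 7.12 ± 0.570 to 5.27 ± 0.106 RPKM. Larp1 and Mtor, named after their values were seen, had log2 fold changes of 0.40 and 0.25 (limma, adjusted p = 0.00527 and 0.0338). Tsc2, Max, Mxi1 and Depdc5, also named after their values were seen, complete the 6 that fell. Their log2 fold changes were -0.32, -0.34, -0.30 and -0.22 (limma, adjusted p = 0.00266, 0.0284, 0.00945 and 0.0159).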

How the data were processed

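RNA-seq of brown fat was compared between 4 control and 4 knockout libraries. TopHat2, featureCounts and edgeR on build mm9 are named per the submitters' processing notes. The sources used here give no versions, strand setting or annotation. The table deposited by the authors holds, per the file headers, RPKM per library and the authors' log2 fold change, average log2 CPM, p-value and FDR. Whole reads were recovered from 100% of RPKM values within 0.001 reads, which gave the read numbers and gene model lengths. No per-sample column was left unused.

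RPKM were scaled by TMM factors (trim 0.3 of ratios and 0.05 of levels, computed from recovered reads), and log2(RPKM + 1) was tested with limma 3.58.1 in R 4.3.3 with a mean-variance trend. Tests were two-sided and took in the 8764 genes whose mean reached 1 RPKM, adjusted after Benjamini and Hochberg at a threshold of 0.05. On this scale the change of low genes is understated. Alternatives were the library total, RLE factors, the listed-gene sum, a pseudocount of 0.1, no filter, a filter of 1 CPM in at least 4 libraries, limma voom on recovered reads, the deposited results and each library left out. A scaling on the members themselves gave their relative changes. The method was tested on simulated counts in which few genes changed. Reads on listed genes were not made to differ between genotypes there, so that test does not cover the dependence on scaling.

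Members and lists were chosen with earlier results of these data known. A few genes are counted but not reported here by name. Named genes are Hdac3, up to 25 members past the threshold, the 3 largest rises and falls, the 3 most abundant per subunit, paralogs with partners, stalk genes, Rpsa, Fau and up to 4 genes per list by adjusted p. Rpl27a, Rpl28, Rpl35a, Rpl36a, Rps13, Rps15a and Rps25, and others named as outside this rule, were added after their values were seen. Starts came from RefSeq (GRCm38.p6) and copies from a BLAST 2.17.0 search of GENCODE M21 pseudogene transcripts, both matched by symbol. That build differs from mm9. Reads shared with pseudogenes, other copies or antisense genes could not be told apart. Other steps used Python 3.11.15 with pandas 2.3.3, and plots matplotlib 3.10.9. Read numbers cover counting error only, since duplicates cannot be removed.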

Additional observations from a re-analysis of the deposited data

Results flagged for a closer look

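In 10 of 162 groups of 4 libraries (81 members in 2 genotypes), the highest or lowest library stood apart from the other 3 by Dixon's test at the 95% level, where chance flags about 1 in 20, or 8.1. In 6 of the 10 the library was knockout replicate 4, which also had the highest geometric mean of the members. There Rpl10 was at 103.7 RPKM beside 84.7 to 87.1 in the other knockout libraries, and Rpl19 at 106.0 beside 88.9 to 89.98. Rps19 was at 85.3 RPKM beside 70.1 to 71.8, Rps21 at 99.7 beside 78.7 to 80.5, Rps23 at 90.7 beside 78.4 to 79.4 and Rpsa at 87.3 beside 74.6 to 76.5. Of these, Rps19 and Rps21 passed the test between genotypes. Rpl22l1 was high in knockout replicate 5, at 7.80 RPKM beside 5.73 to 6.05. Control replicate 12 was high for Rpl15, at 23.1 RPKM beside 21.2 to 21.4, and for Rpl27, at 43.3 beside 38.6 to 38.8. Control replicate 13 was low for Rpl7, at 84.3 RPKM beside 91.7 to 93.0.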

How the results depend on the processing

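No paired analysis was possible because control and knockout libraries share no replicate numbers. Scaling moved the counts most. With the library total, 57 members rose and 0 fell, of all genes 2796 and 628, of the other TOP genes 0 fell, of initiation factors 16 rose and 1 fell, of assembly factors 24 rose and of regulators 10 rose and 1 fell. With the listed-gene sum, 5 members rose and 7 fell, of all genes 1087 and 2651, of the other TOP genes 3 and 5, and of assembly factors 5 and 10. It also gave 10 lower initiation factors and 11 lower regulators. The members' median log2 fold change was 0.35 and 0.0151 under these 2 scalings, and 0.15 to 0.18 under the other settings with all libraries, and 0.11 without knockout replicate 4. The split of members into higher and lower thus depended on scaling. Rpl7l1, Rpl9, Rps14, Rps18 and Rps28 rose under TMM and both of these, and Rpl21 and Rps26 fell under TMM and the listed-gene sum but not with the library total.

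Leaving out 1 library gave 13 to 25 members higher and 0 to 3 lower (0 without control replicate 12, where 2 were lower at an unadjusted p below 0.05 by limma). It gave 5 to 7 TOP genes higher and 1 to 2 lower, 1 to 7 initiation factors lower, and 7 to 12 assembly factors higher and 1 to 3 lower. Without each library in turn, fewer of all genes rose than in the full set. Relative to the family 5 to 8 members were higher and 5 to 10 lower. The authors' deposited table had 2 lower assembly factors. The ratio of large to small subunit means, knockout over control, was 0.992, or 1.01 with geometric means, so it turned direction. RLE factors, the pseudocount, both filters and limma voom gave 21 to 26 members higher and 2 lower. Of all genes, 18.9% rose with RLE factors and 20.2% with limma voom, beside 19.4% with TMM scaling and limma on log2(RPKM + 1). At the depth of the paralogs, with as few as 22 reads, counting error alone is wide. The cause of these shifts was not tested.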
